A study of Mus musculus with 2 samples.

Results

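Oxidative phosphorylation is carried out by proteins of the inner mitochondrial membrane, and most of their subunits are encoded in the nucleus. The genes described here are the protein-coding genes of the GENCODE M21 annotation of the mouse genome (mm10) whose symbol starts with Ndufa, Ndufb, Ndufc, Ndufs, Ndufv, Sdha to Sdhd, Uqcr, Cox4i to Cox8, or Atp5. The rule gave 98 of 21938 protein-coding genes. Read by its letters it also takes in 12 assembly factors, Ndufaf1 to Ndufaf8 and Sdhaf1 to Sdhaf4, and the 86 genes left without them include a second, readthrough entry of Atp5o. The samples were left cerebral cortex of 2 female B6CASTF1/J mice aged 36 days (hybrids, per the strain name, of B6 and CAST parents), with 1 DNase-seq library per animal, and the labels name no treatment. Although the animals carry different numbers in the labels, 1 donor entry is given for both. The design has 1 group, so there was nothing to compare between conditions and no p-value is given. DNase-seq maps where the nuclease DNase I can cut, which marks accessible DNA, and the deposited lists of each library hold peaks, footprints (short protected stretches within accessible DNA) and, for runs of positions, a false discovery rate (FDR) of cutting. In bulk tissue, fewer cells with an accessible site and less accessibility per cell cannot be told apart.

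As background, complexes I and II pass electrons from NADH and succinate to ubiquinone, complex III passes them to cytochrome c, and complex IV passes them to oxygen. Complex V, the ATP synthase, uses the proton gradient that results to make ATP, on which neurons depend heavily. The transcription factor NRF1 and the ETS family factor GABP are the classical regulators of these genes, with YY1, the ERR receptors and the coactivator encoded by Ppargc1a. Several subunits of complex IV exist as isoforms, of which some are made in most tissues and others mainly in heart and skeletal muscle, testis or lung.

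The promoters below are examples for the results that follow, 1 from each class. Cox6a2 was added, so that Cox6a1 and Cox6a2 show the widely used and the muscle isoform of the same complex IV subunit. Only promoters with at least 1 motif match in the stretch shown were chosen, so they are not typical of the whole set. In that set, 66 genes (67.3%) had neither an NRF1 nor an ETS match. Each sequence runs from 170 bases before to 30 bases from the annotated principal start on, is 200 bases long, is read 5′ to 3′ on the gene's own strand, and comes from the mm10 reference of C57BL/6J, not from the hybrid mice. Positions are counted from the annotated start, which is position 0. Capitals mark matches on either strand to the NRF1, ETS, YY1, GC box, NF-Y or TATA motif, whose letters are given with the counts further on. The stretches are chr1:63176793-63176992 (minus strand) for Ndufs1, chr17:33824402-33824601 (plus strand) for Ndufa7, chr13:74350251-74350450 (minus strand) for Sdha, chr11:53430798-53430997 (minus strand) for Uqcrq, chr5:115348952-115349151 (minus strand) for Cox6a1, chr7:128206358-128206557 (minus strand) for Cox6a2, chr12:111966948-111967147 (minus strand) for Atp5mpl and chr11:120098758-120098957 (plus strand) for Ndufaf8.
Ndufs1: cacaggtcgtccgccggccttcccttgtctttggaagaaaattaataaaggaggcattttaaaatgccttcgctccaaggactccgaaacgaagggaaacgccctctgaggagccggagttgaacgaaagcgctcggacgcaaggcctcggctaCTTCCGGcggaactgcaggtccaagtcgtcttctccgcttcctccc
Ndufa7: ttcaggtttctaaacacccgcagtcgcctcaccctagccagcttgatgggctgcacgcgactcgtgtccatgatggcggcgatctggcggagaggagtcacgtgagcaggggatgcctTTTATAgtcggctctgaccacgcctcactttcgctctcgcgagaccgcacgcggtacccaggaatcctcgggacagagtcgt
Sdha: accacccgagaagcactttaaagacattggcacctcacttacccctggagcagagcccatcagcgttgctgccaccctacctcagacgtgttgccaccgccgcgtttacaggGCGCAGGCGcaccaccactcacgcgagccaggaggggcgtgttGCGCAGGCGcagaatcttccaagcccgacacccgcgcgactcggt
Uqcrq: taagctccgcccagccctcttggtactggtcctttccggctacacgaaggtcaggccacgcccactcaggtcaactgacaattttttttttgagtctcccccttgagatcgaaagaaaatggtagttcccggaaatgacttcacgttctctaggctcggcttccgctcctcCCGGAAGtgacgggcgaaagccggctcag
Cox6a1: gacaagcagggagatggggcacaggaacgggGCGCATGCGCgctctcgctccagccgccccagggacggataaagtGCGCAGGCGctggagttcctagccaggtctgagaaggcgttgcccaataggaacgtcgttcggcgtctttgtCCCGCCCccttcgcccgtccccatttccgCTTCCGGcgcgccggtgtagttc
Cox6a2: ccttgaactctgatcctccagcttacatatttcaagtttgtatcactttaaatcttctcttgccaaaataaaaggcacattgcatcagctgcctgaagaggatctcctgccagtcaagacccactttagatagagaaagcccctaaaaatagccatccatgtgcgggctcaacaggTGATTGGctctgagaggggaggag
Atp5mpl: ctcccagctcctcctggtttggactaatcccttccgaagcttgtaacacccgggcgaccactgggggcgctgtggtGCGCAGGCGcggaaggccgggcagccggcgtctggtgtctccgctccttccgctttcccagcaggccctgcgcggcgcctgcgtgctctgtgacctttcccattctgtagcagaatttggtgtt
Ndufaf8: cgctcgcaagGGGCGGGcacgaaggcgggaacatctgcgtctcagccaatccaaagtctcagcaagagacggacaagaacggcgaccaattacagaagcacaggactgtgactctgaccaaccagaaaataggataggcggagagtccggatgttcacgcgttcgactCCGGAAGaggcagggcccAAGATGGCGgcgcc

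In Cox6a1 the capitals are, from left to right, 2 overlapping NRF1 matches on a palindrome, another NRF1 match, a GC box and an ETS match. All of them lay under a footprint in both mice, which here means an overlap of at least 1 base. The NRF1 matches, however, lay outside the called peaks in both mice, and the ETS match did so in replicate 2. The footprint over the palindrome ran from position -145 to -125 in replicate 1 and from -143 to -125 in replicate 2, and the one over the NRF1 match at -94 ran from -98 to -82 and from -99 to -82. In Sdha the capitals mark NRF1 matches at -58 and -15, and a further match at position 30 lies just past the stretch shown. In each mouse all 3 matches were touched by a footprint. The match at -58 was touched by footprints of 7 bases only, while the match at -15 was covered from -19 to -3 in replicate 1 and from -22 to -1 in replicate 2. Ndufs1 has an ETS match at -16, covered from -24 to -8 in replicate 1 and from -19 to -6 in replicate 2. Uqcrq has an ETS match at position 1 and Ndufaf8 has one at -2, and both were touched by a footprint in replicate 1 only. In Ndufaf8 that footprint ran from -15 to -1 and reached only the first bases of the match. The YY1 match of Ndufaf8 at position 16 was covered from 9 to 30 and from 9 to 32. The only capitals of Cox6a2 mark an NF-Y match at position 6, and no footprint lay within 1 kb of that gene's start in either mouse. The stretch shown of Cox6a1 holds 22 CpG dinucleotides and that of Cox6a2 holds 1.

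Nearly all of these genes had an accessible promoter. A gene was called open when a peak of the shorter of each library's 2 peak lists came within 1 kb of an annotated start in both mice, with the peaks overlapping by at least 1 bp. By this rule 90 of 98 were open (91.8%), where 61.0% of all protein-coding genes were. The same 90 genes had an overlapping footprint in both mice, where 62.2% of all protein-coding genes had one. The same 90 also had an overlapping run of positions with a deposited FDR under 0.001, where 61.7% of all genes did, and a peak of the longer lists, where 65.4% did. The open count was 91 in replicate 1 alone and 90 in replicate 2 alone. Of the 79 genes outside the isoform families 77 were open, and of the 19 genes within them 13 were.

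The open promoters were also high among promoters. Peak height is the signal value that the authors deposited for each peak, and the height of a gene is that of its highest peak within 1 kb of a start. The factor behind these values is not stated and differs between the libraries, so each gene was ranked within its library among the 13384 open protein-coding genes. The median height of the 90 open genes was 5.69 in replicate 1 and 4.21 in replicate 2, against 4.11 and 2.95 over all open genes. Their median percentile was 72.0, with quartiles at 56.7 and 84.3, against 50.5 over all open genes. Above the percentile 75 lay 42 of the 90 (46.7%), where 24.4% of all open genes did. Above percentile 90 lay 11 (12.2%), where 8.96% did. Only 3 lay below percentile 25, and all 3 belong to complex IV.

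**Figure D1:**
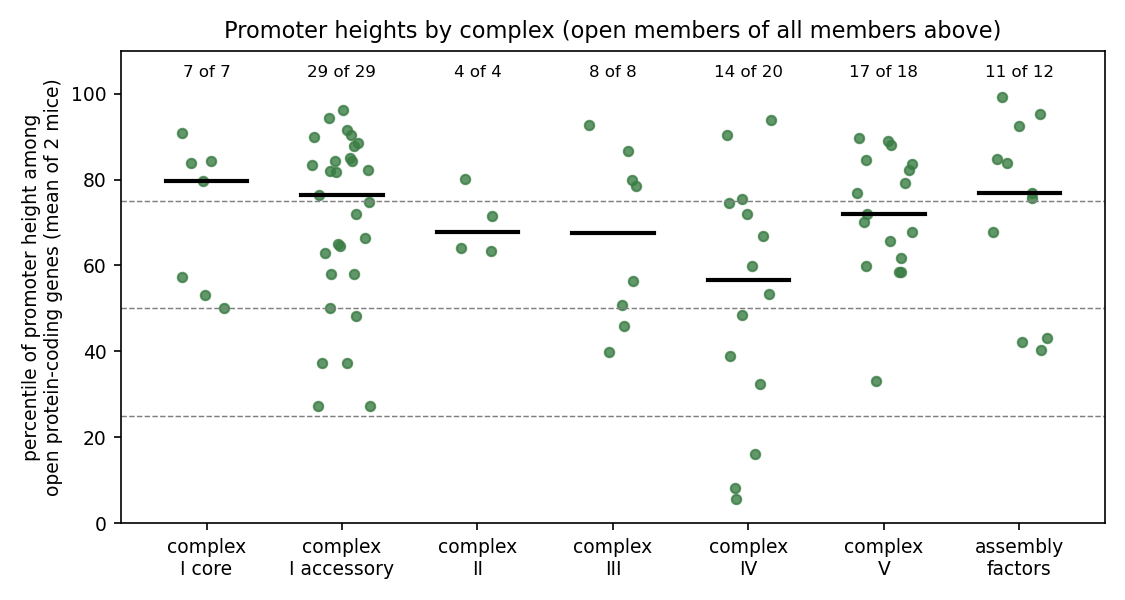
Promoter height of each open gene as a percentile among open protein-coding genes (vertical axis, mean of the 2 mice), by complex, with the number of open genes of all genes above each column. Points are genes, bars are medians and dashed lines mark percentiles 25, 50 and 75, and complex IV holds the only points below 25.

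In complex I, all 7 core subunits and all 29 accessory subunits were open. The core subunits carry the flavin and iron-sulfur clusters that lead electrons from NADH to ubiquinone, and their median percentile was 79.7. Ndufs1, the largest iron-sulfur subunit, stood at 7.55 in replicate 1 and 6.45 in replicate 2. Ndufs7, which lines the ubiquinone site, stood at 7.32 and 5.04. Ndufv1, which binds NADH, stood at 5.86 and 5.40. The lowest core subunits were Ndufs3 at 3.93 and 3.09, Ndufs8 at 3.60 and 4.17, and Ndufv2 at 4.58 and 2.96. In both libraries Ndufs1 was the highest of the 7.

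The accessory subunits, which surround the core and are needed for its assembly and stability, had a median percentile of 76.5, and 15 of 29 lay above 75. Ndufa13 stood at 9.02 and 7.60, but its highest peak was centred at position -802.5 in replicate 1, within 1 kb of the starts of Tssk6 and Yjefn3. No peak lay within 200 bp of its own principal start, and the peak cannot be assigned to Ndufa13 rather than to these neighbours. Ndufa7 stood at 9.16 and 6.43, centred at position -21.5 in both mice. Ndufb8 stood at 8.97 and 5.31, Ndufa8 at 8.37 and 5.69, and Ndufb5 at 7.86 and 6.37. Ndufc1 at 10.05 and 4.21 and Ndufs4, whose loss causes Leigh syndrome, at 10.002 and 4.21 were the highest accessory subunits in replicate 1 but not in replicate 2. The lowest were Ndufc2 at 2.94 and 1.45 and Ndufb11 at 2.17 and 1.96.

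All 4 subunits of complex II were open, in a narrow range. Sdha, the flavoprotein that oxidises succinate, stood at 7.24 and 4.44. Sdhb, the iron-sulfur subunit, stood at 5.11 and 4.74, and the membrane anchors Sdhc and Sdhd stood at 4.63 and 4.08 and at 4.55 and 4.22. Sdha was above the other subunits in replicate 1, and in replicate 2 Sdhb was the highest. The peaks of Sdha and Sdhd also lie within 1 kb of the starts of Ccdc127 and Timm8b.

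All 8 genes of complex III were open, with a median percentile of 67.5. Uqcrq, a small ubiquinone-binding subunit, stood at 8.65 and 6.11, and Uqcrfs1, the Rieske iron-sulfur protein, at 7.98 and 5.07. Of the pair of core proteins, Uqcrc1 stood at 8.07 and 4.08 and Uqcrc2 at 3.52 and 2.25, so Uqcrc1 was higher in both mice. Uqcrc2 was the lowest of the 8 in replicate 2, and Uqcrb at 3.34 was the lowest in replicate 1. Uqcrh, the hinge protein, reached 7.25 and 4.21 through a peak centred at position -359.5 near the start of Lrrc41, while the highest peak within 200 bp of its own start stood at 2.77 and 2.93.

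In complex IV, 14 of 20 genes were open, with Ndufa4 and Ndufa4l2 counted here since the NDUFA4 protein is a subunit of complex IV. The 6 that were not open are Cox4i2, Cox6a2, Cox7b2, Cox8b, Cox8c and Ndufa4l2, and each is the restricted member of an isoform family. Outside the families, Cox6c stood highest at 11.3 and 5.67, Cox5a at 7.39 and 3.75, Cox5b at 5.41 and 4.51, and Cox7c at 2.82 and 2.72.

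Within the isoform families, the widely used genes were open and most restricted genes were not. Cox4i1, the form of subunit IV made in most tissues, stood at 4.24 in replicate 1 and 3.20 in replicate 2, with 16 and 25 footprints. The peak of Cox4i1 also lies within 1 kb of the starts of Emc8 and Gm27021, and that of Ndufa4 within 1 kb of the start of Phf14. Cox4i2, the form found in lung and induced by low oxygen, had no peak, no footprint and no run under the FDR threshold, and its nearest peak lay 11487 bp away in both mice. Cox6a1 stood at 8.29 and 5.72, at percentiles 90.9 and 89.9, with 8 and 12 footprints. Cox6a2, the heart and skeletal muscle form, had no peak or footprint within 1 kb, and its nearest peak lay 1934 bp from a start in replicate 1 and 1914 bp in replicate 2, at heights of 0.869 and 1.09. Cox8a stood at 5.40 and 4.97, while the muscle form Cox8b and the testis form Cox8c had nothing within 1 kb, and their nearest peaks were 2895 and 13342 bp away in replicate 1. Cox7b stood at 1.64 and 1.29, and the testis form Cox7b2 had its nearest peak 45845 bp away. Ndufa4 stood at 5.39 and 3.88 against none for Ndufa4l2, a gene induced by low oxygen, whose nearest peak lay 1887 and 1847 bp away at heights of 8.21 and 4.03.

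In the families of Cox6b and Cox7a the restricted form had a peak, but a low one. Cox6b1 stood at 3.11 and 1.80, and the testis form Cox6b2 at 1.11 and 0.679, so Cox6b1 was 2.81 times as high in replicate 1 and 2.64 times in replicate 2. Cox7a2 stood at 4.76 and 3.54 and Cox7a2l, which helps complexes III and IV to associate, at 4.001 and 2.86. The heart and skeletal muscle form Cox7a1 stood at 0.936 and 1.03, or 0.197 and 0.292 times Cox7a2 in the same libraries. In each family the 2 values of the restricted form lay below both values of the widely used form. Cox6b2 and Cox7a1 were at percentiles 5.59 and 8.22, the lowest of all 90. Their peaks lay at their own starts in both mice, and Cox7a1 had 1 footprint in replicate 1 and 5 in replicate 2. Over all families, 2 of 8 restricted genes and 7 of 7 widely used ones were open, with Cox7a2l and the Atp5g genes left out of this count.

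**Figure D2:**
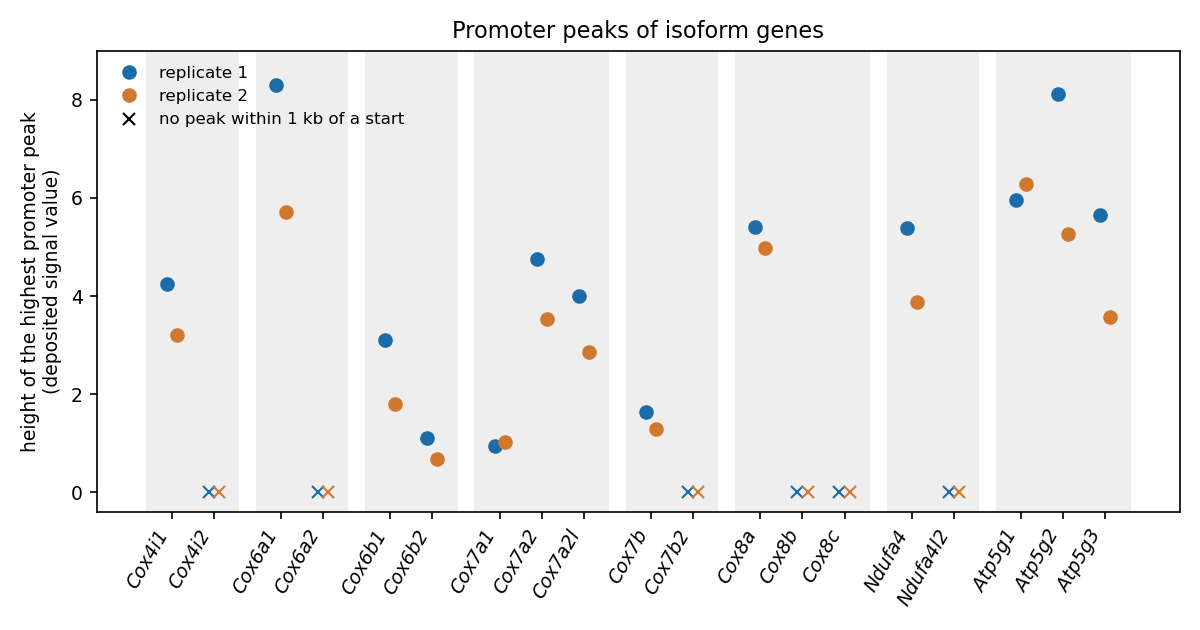
Height of the highest promoter peak (vertical axis, deposited signal value) of each isoform gene in replicate 1 and replicate 2, with families shaded and crosses for genes that had no peak within 1 kb of a start. The 6 genes with crosses had none in either mouse, and Cox7a1 and Cox6b2 lie near 1 while their widely used partners lie above them.

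The isoform genes of complex V did not split this way. Atp5g1, Atp5g2 and Atp5g3 encode the same mature c subunit of the rotor ring and differ in their import sequences. They stood at 5.95 and 6.29, at 8.12 and 5.26, and at 5.65 and 3.57. All 3 were open in both mice, Atp5g3 was the lowest of them in both, and the order of Atp5g1 and Atp5g2 differed between the mice. Complex V has 18 entries here, among them Atp5s, which is not a structural subunit. Of the 18, 17 were open, with a median percentile of 71.9. The exception is the readthrough entry of Atp5o, which had a peak of 0.322 in replicate 1 only, while Atp5o itself, the oligomycin-sensitivity subunit of the stalk, stood at 4.54 and 3.71. Atp5b, the catalytic beta subunit, stood at 8.44 and 5.33, Atp5a1, the alpha subunit, at 4.88 and 3.29, and Atp5c1, the gamma shaft, at 6.62 and 5.15. Atp5mpl, a small membrane subunit, was the highest of complex V in replicate 1 at 11.4 and stood at 4.84 in replicate 2. Atp5l, subunit g, was the lowest open gene of the complex at 2.24 and 2.50.

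Assembly factors, which build the complexes without staying in them, were open in 11 of 12 cases and included the highest promoter of all 98 genes. Ndufaf8 stood at 13.9 and 7.97, at percentiles 99.5 and 99.0, Ndufaf5 at 10.9 and 6.07, and Ndufaf4 at 11.4 and 5.33. All 3 act on complex I. The peaks of Ndufaf8 and Ndufaf5 also lie within 1 kb of the starts of Tepsin and Esf1. The lowest in replicate 1 was Sdhaf2, which adds the flavin to Sdha, at 3.32 and 2.65, and the lowest in replicate 2 was Ndufaf6 at 3.95 and 2.30. The exception is Sdhaf1, which serves the iron-sulfur subunit of complex II. Its nearest peak lay 1335 bp from the GENCODE start, at 5.74 and 4.45. RefSeq places a start of Sdhaf1 1520 bp from the GENCODE one, and within 1 kb of that start the peak counted in both mice, with 6 and 10 footprints. With RefSeq starts 91 of 97 matched genes were open, and Sdhaf1 was the only gene whose call changed.

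Heights were set side by side between the mice. Height was higher in replicate 1 for 86 of the 90, for which no share over all open genes is given here. Over the libraries as a whole, the median ratio of replicate 2 to replicate 1 was 0.744 over 45612 regions with 1 peak in each mouse. Relative to that value, the log2 height ratios of the open genes had a median of -0.10 (SD 0.34, n = 90 genes) against -0.05 (SD 0.33) over all open genes. With the longer lists the median of the open genes was -0.20. All 90 lay within 1 of the centre, where 99.3% of all open genes did, and 72 (80.0%) lay within 0.5, where 87.7% did. Across genes, Spearman's rho between the heights in the mice was 0.81 over the 90 and 0.94 over all 13384 open genes, which come from the same libraries and are not independent. The ratios furthest below the centre were those of Ndufc1 at -0.83, Ndufs4 at -0.82 and Atp5mpl at -0.81, and the furthest above were Ndufs8 at 0.64, Atp5l at 0.58 and Cox7a1 at 0.57. With 1 library per mouse, a difference between the animals and one between the libraries cannot be told apart. The highest peaks of the mice overlapped in 87 of the 90, and again no share over all open genes is given here. In Atp5l, Ndufaf3 and Ndufa11 a different peak was the highest in each mouse.

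**Figure D3:**
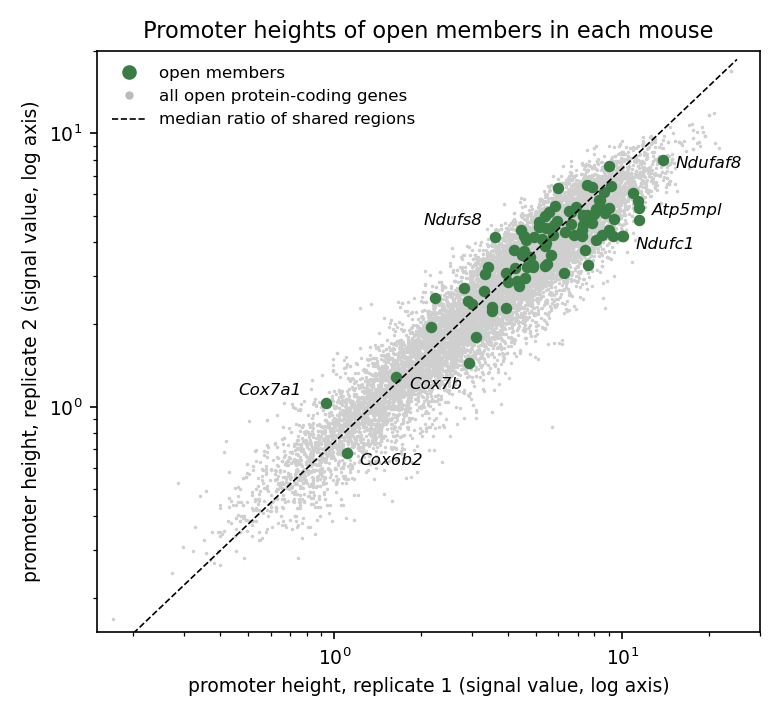
Height of the highest promoter peak in replicate 1 (horizontal, log axis) and replicate 2 (vertical, log axis) for the 90 open genes (large points) and all open protein-coding genes (small points), with the median ratio of shared regions as a dashed line. Cox7a1, Cox6b2 and Cox7b lie at the lower end and Ndufaf8 at the upper end.

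Most of these peaks sat on the start itself. The centre of the highest peak lay within 200 bp of the principal start for 78 of 90 genes in replicate 1 (86.7%) and 79 in replicate 2 (87.8%), where 67.9% and 67.8% of all open genes did. The median width was 220 and 240 bp, against 240 and 260 bp. For 14 genes the centre of the highest peak lay further away in at least 1 mouse. In 10 of these some part of a peak still lay within 200 bp of the principal start in both mice. For Ndufs7, Uqcrq, Atp5a1, Atp5g1 and Atp5l that was the highest peak itself, not a separate one. Ndufa13, Ndufa5, Atp5f1 and Atp5j2 had none there. The RefSeq starts of Atp5f1 and Atp5j2 lie within the highest peaks of these genes in both mice. The highest peak of Atp5d, the delta subunit, was centred at position -864.5 in replicate 1 near the start of Cbarp, and at its own start Atp5d reached 4.91 and 3.31. The highest peak of Atp5j, coupling factor 6, was the peak at the start of Gabpa, at 4.47 and 3.60, and at its own start Atp5j reached 3.16 and 2.73. Gabpa encodes the DNA-binding subunit of GABP.

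Sharing a promoter region with another gene was frequent. A protein-coding gene read in the opposite direction started within 1 kb for 30 of 98 genes (30.6%), where 9.23% of all protein-coding genes had such a partner. Among open genes alone, 30 of the 90 and 1917 of all 13384 had one. All 30 were open, and so were 94.7% of all genes with a partner. Their median percentile was 67.4, and that of the other 60 open genes was 74.8. Over all genes the medians were 70.5 with a partner and 46.2 without, the opposite order. The partners include Eef1b2 beside Ndufs1, Rps28 beside Ndufa7, Mrpl36 beside Ndufs6, Timm8b beside Sdhd and Gdf9 beside Uqcrq, of which Rps28 and Mrpl36 encode ribosomal proteins. For 36 of the 90 open genes the highest peak lay within 1 kb of another protein-coding start, and its height cannot be divided between the genes. This was not counted over all open genes, so whether 36 is many is not known. The 54 without such a neighbour had a median percentile of 74.8.

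Promoters of these genes were rich in CpG. The ratio of observed to expected CpG in the bases from 250 before to 50 after the principal start had a median of 0.804 against 0.557 over all protein-coding genes. All 71 genes with a ratio over 0.6 were open, where 92.6% of all such genes were. Among open genes alone, 71 of the 90 and 9525 of all 13384 had such a ratio, so it was common in open promoters generally. Between 0.3 and 0.6, 17 of 20 were open, where 58.5% of all such genes were. Under 0.3, 2 of 7 were open, where 16.7% were. These 2 are Atp5f1 and Atp5j2, with highest peaks centred at positions 788.5 and 501.5 in replicate 1. Their ratios were read at the principal start and not at those peaks. The isoforms differ here too, with 1.20 for Cox4i1 and 0.538 for Cox4i2, 1.03 for Cox6a1 and 0.140 for Cox6a2, 0.842 for Cox8a and 0.115 for Cox8b, and 0.833 for Cox7a2 and 0.304 for Cox7a1. Cox7b runs the other way, at 0.368 against 0.564 for Cox7b2. The ranges overlap, since Cox7a1, Cox7b and Cox6b2 (0.432) were open and Cox4i2, Cox7b2 and Cox8c (0.460) were not. The part of CpG content in the calls was not tested.

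Footprints were concentrated at the starts. The open genes had a median of 7.5 footprints within 1 kb in replicate 1 and 8 in replicate 2, against 9 in each over all open genes, and the counts ran from 1 to 27 and from 2 to 25. Atp5d had the most in replicate 1 with 27, and 24 in replicate 2, Cox4i1 had 16 and 25, and Atp5j had 17 and 22. These counts cover 1 kb around every annotated start, so genes with starts far apart have wider windows. With RefSeq starts Atp5d had 12 and 9 and Cox4i1 had 10 and 19, while Atp5j kept 17 and 22. Of 775 footprints in replicate 1, 496 (64.0%) overlapped a footprint of replicate 2, where 53.6% did over all protein-coding genes. Within 100 bp upstream of the principal start the open genes had 1.86 footprints per gene in replicate 1 and 1.69 in replicate 2, against 1.56 and 1.53 over all open genes. Within 100 bp downstream they had 1.81 and 1.73 against 1.35 and 1.29. From 500 bp to 1 kb downstream the order was reversed, with 0.444 and 0.422 per gene against 0.787 and 0.753.

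**Figure D4:**
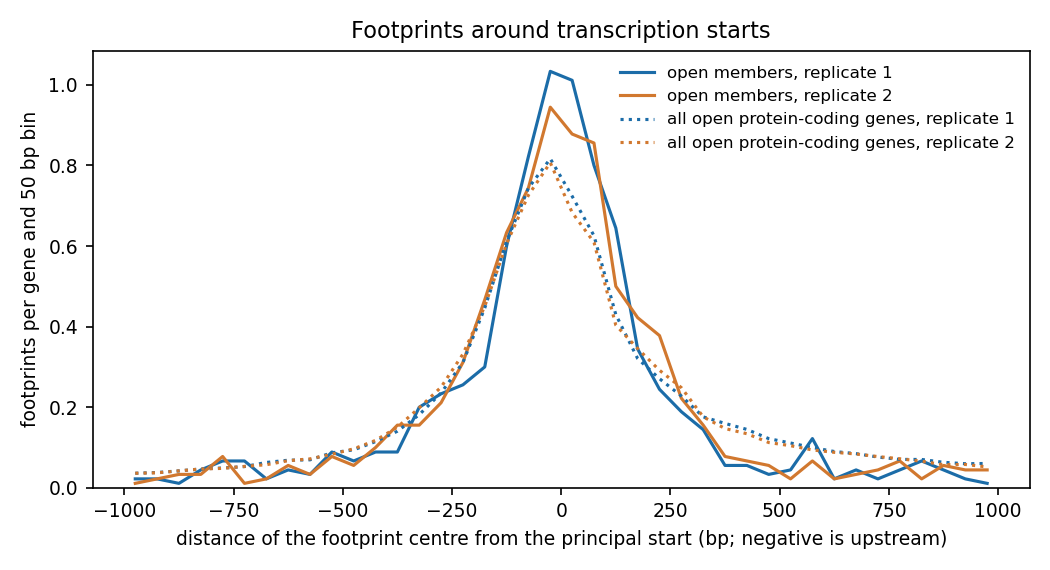
Footprints per gene in 50 bp bins (vertical axis) by distance of the footprint centre from the principal start (horizontal axis, bp), for the 90 open genes (solid) and all 13384 open protein-coding genes (dotted) in each mouse. The solid lines lie above the dotted ones just around the start and below them more than 500 bp downstream, apart from single bins.

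Matches to the NRF1 motif (GCGCANGCG) were found in 19 of 98 promoters from 250 bp before to 50 bp after the principal start (19.4%), where 8.61% of all protein-coding promoters had one. Among open genes the shares were 21.1% and 13.0%. All motifs were searched as the letters given beside their names, on both strands, and matches that overlap, as on a palindrome, were counted separately. The 19 genes hold 30 matches, of which 23 lie within 100 bp of the start. They are Ndufa8, Ndufa11, Ndufb4 and Ndufs5 of complex I, Sdha and Sdhd of complex II, Uqcrc1 and Uqcr11 of complex III, Cox6a1 of complex IV, Atp5g2, Atp5g3, Atp5h, Atp5k, Atp5l and Atp5mpl of complex V, and Ndufaf4, Ndufaf5, Sdhaf3 and Sdhaf4. No core subunit of complex I had a match. A footprint overlapped 26 of the 30 matches in replicate 1 (86.7%) and 29 in replicate 2 (96.7%), where 84.5% did in each mouse over the promoters of all open genes. The match of Uqcrc1 at position 21 had no footprint in either mouse, and those of Atp5k and Uqcr11 had one in replicate 2 only. The palindromes of Ndufa11, Ndufaf4, Ndufaf5 and Atp5g2 were under a footprint in both mice. So was that of Cox6a1 printed above, which lay outside the called peaks.

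ETS matches (CCGGAAG) were found in 19 of 98 promoters (19.4%), where 11.2% of all protein-coding promoters had one, and among open genes in 21.1% against 16.6%. They occurred in every complex, among them Ndufs1 and Ndufs8, Sdhd, Uqcrq, Cox8a and Atp5e. A footprint overlapped 11 of 23 matches in each mouse (47.8%), against 47.0% and 49.1% over all open genes. The whole match lay inside a footprint for 5 in replicate 1 and 4 in replicate 2, against 559 and 541 of 2709 over all open genes. Sdhd, Uqcr11, Cox6a1, Atp5h, Atp5l and Sdhaf3 had both an NRF1 and an ETS match, and these 6 genes make 6.12% of the 98 where 1.61% of all genes had both. Either match was present in 32 genes (32.7%, against 18.2%), and 66 had neither. Open genes with an NRF1 match had a median percentile of 77.0 (n = 19) and those without had 71.5 (n = 71), while over all open genes the medians were 68.9 and 47.1. For ETS the medians were 64.6 with a match and 74.9 without, while over all open genes they were 62.7 and 46.9.

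YY1 matches (AANATGGCG) were found in 8 promoters (8.16%), where 3.14% of all protein-coding promoters had one. Promoters with a match include those of Ndufs7, Ndufa9, Ndufb11, Atp5h, Ndufaf8 and Sdhaf2. A footprint overlapped 6 of the 8 matches in both mice, where 61.1% in replicate 1 and 55.6% in replicate 2 were overlapped over all open genes. GC boxes (GGGCGGG), which Sp1 can bind, were found in 29 promoters (29.6%), where 33.5% of all had one, and among open genes the shares were 28.9% and 47.2%. NF-Y matches (CCAATCA) were found in 9.18% against 9.15%, and TATA matches (TATAAA) in 11.2% against 12.6%. CRE matches (TGACGTCA) were found in Ndufa10, Ndufb2, Uqcrfs1 and Ndufa11, which is 4.08% against 2.48% of all protein-coding genes. All but that of Ndufa11 were under a footprint in both mice, that is 3 of 4 matches, where 87.4% and 88.5% were over all open genes. ZNF143 matches (ACTACAATT) were found in 2 promoters (2.04% against 0.561%). ERR matches (TCAAGGTCA) were found in Atp5g3 and Sdhd (2.04% against 0.392%), and neither was under a footprint, as was the case for all 87 ERR matches in protein-coding promoters. A match is a string of letters and does not show that the factor was bound.

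**Figure D5:**
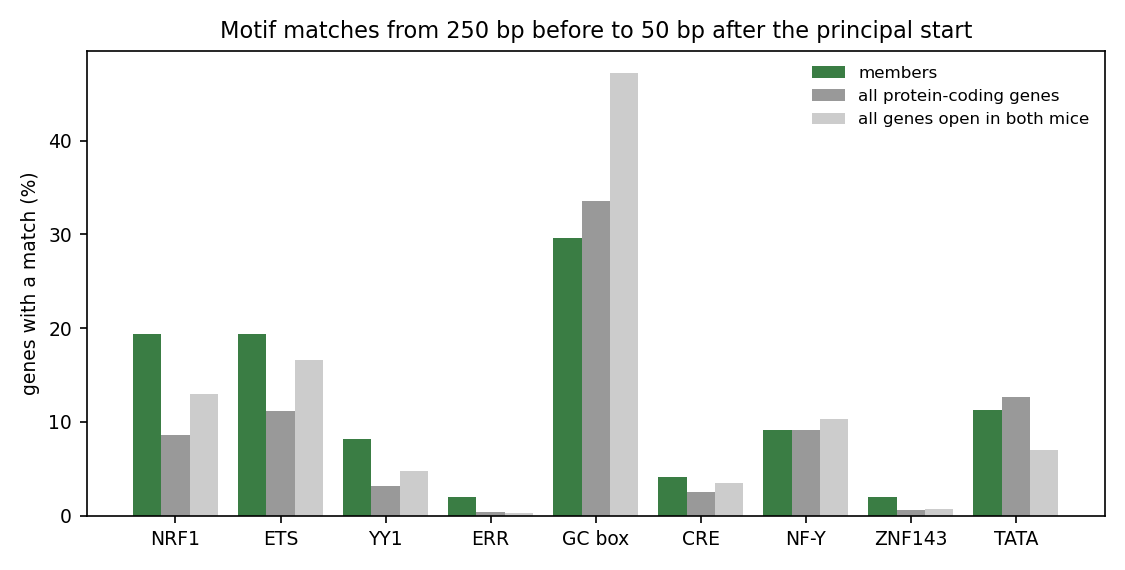
Share of genes (vertical axis, percent) with at least 1 match of each motif from 250 bp before to 50 bp after the principal start, for the 98 genes, all protein-coding genes and all genes open in both mice. NRF1, ETS, YY1, CRE, ERR and ZNF143 stand higher in the 98 genes than in the other sets, the last 3 on 2 to 4 genes each, and the GC box stands lower.

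Genes of the same pathway outside the symbol rule were nearly all open, 46 of 47 of them, where 61.0% of all protein-coding genes were. Cycs, which encodes cytochrome c, stood at 9.81 and 6.04, and Cyc1, the cytochrome c1 subunit of complex III, at 2.19 and 1.82. All 6 further assembly factors of complex I, all 6 of complex III, all 15 of complex IV and all 4 of complex V were open, with median percentiles of 81.6, 70.2, 67.0 and 41.5. Among 14 regulators, Nrf1 stood at 4.86 and 3.65, Gabpa at 4.47 and 3.60, Yy1 at 6.29 and 4.91, Esrra at 8.18 and 7.89 and Tfam, which packages and transcribes mitochondrial DNA, at 4.97 and 3.79. Esrrb and Esrrg were low, at 1.14 and 0.673 and at 1.32 and 0.797. Ppargc1a was the exception, with a peak of 0.808 in replicate 2 only, yet 5 and 13 footprints.

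The libraries held 69208 and 69128 peaks and 318728 and 317176 footprints, and their depth in reads is unknown. Neuronal markers were open in 6 of 7 cases (all but Gad1), astrocyte markers in 3 of 4 (not Aqp4) and oligodendrocyte markers in 2 of 4, while 0 of 3 microglial and 0 of 3 vessel markers were. Over all protein-coding genes 61.0% were open. The open neuronal, astrocyte and oligodendrocyte markers had median percentiles of 41.3, 29.3 and 16.6, against 50.5 over all open genes. For the tissues of the restricted isoforms, 1 of 5 skeletal muscle markers (Ckm at 4.79 and 1.56), 0 of 4 heart markers, 1 of 2 brown fat markers (Cidea at 1.10 and 0.527) and 0 of 4 testis markers were open. Myh6 and Tnnt2 of heart, Acta1 and Ttn of muscle, and Prm1 of testis had no peak in either mouse.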

How the data were processed

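DNase-seq peaks, footprints and FDR of the cut rate were deposited per library on mm10, per the file headers. No aligner or peak caller is named (not given in the sources used here). Peak height is the signal value of the authors' deposited lists, in an unstated unit. All values below 1 were whole multiples (tolerance 0.05) of 0.00608 in replicate 1 and 0.00561 in replicate 2. All footprints carry 1 constant deposited score, which was not used. The deposited FDR (a q-value, not a p-value) lists positions under 0.05 only.

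GENCODE M21 starts and the GRCm38 sequence were used, and 23194 of 23198 start codons read ATG. Analysis used Python 3.11.15, pandas 2.3.3, pysam 0.24.0 and bedtools 2.31.1, and was tested on simulated data. Coordinates are 1-based. Replicates were taken from the labels. No test was possible with 1 group, so shares stand beside those of all genes. The members, lists and motifs were chosen with earlier results of these data known. Named were all isoform genes, and per class the 3 highest members and those not open, the 3 members at either end of the ratio, and the 3 with most footprints, 46 in all. Other genes were named after their values were seen, and not every gene named by this rule is reported here. Alternatives covered windows, starts, lists, overlaps and each mouse alone.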

Additional observations from a re-analysis of the deposited data

How the results depend on the processing

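Of the main results, 46 alternative values stayed within the spread between mice, within 1.5 times a count or, for the log2 ratio, equal at 2 decimals, and 7 did not. These bounds are loose, so the tally says little about stability. A count of 90 among 98 genes cannot rise past its bound. For the NRF1 share, either mouse alone always lies within the spread of the same 2 mice. Counts also moved within the bounds. From 500 bp before to 100 bp after the start, 27 genes had an NRF1 match and 28 an ETS match, against 19 each. The median log2 ratio of -0.10 became -0.20 with the longer lists, -0.092 centred on regions at starts, -0.11 with summed heights and -0.077 without assembly factors. The median percentile of 72.0 became 73.9 with the longer lists and 62.2 with the heights of all promoter peaks summed. The share of NRF1 matches under a footprint, 91.7% as the mean of the mice, became 80.0% where the whole match had to lie inside. With 1 mouse left out, the genes with a peak numbered 90 to 91, the open isoform genes 13, the median percentile was 71.0 to 72.8, and the NRF1 share was 86.7% to 96.7%. With peaks above the median height of their list only, 88 genes and 11 isoform genes were open, as Cox6b2 and Cox7a1 dropped out. Starts from RefSeq, an alternative chosen after seeing the data, gave 91 open genes. No paired analysis was possible because the samples form 1 group.

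Depth in reads and the unit of height are unknown, so heights were ranked within a library, and no peak means only that none passed the threshold of the authors' lists. Each mouse gave 1 library. Motifs were read from the reference strain, and the CAST allele was not analysed here. Shares of the 98 genes carry no test against other genes.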

Other observations

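The 3 genes on the X chromosome, Ndufa1, Ndufb11 and Cox7b, were open in both female mice but low. Ndufa1, an accessory subunit needed to assemble complex I, stood at 3.02 in replicate 1 and 2.37 in replicate 2, Ndufb11 at 2.17 and 1.96, and Cox7b at 1.64 and 1.29. Their median percentile was 27.4, against 74.7 for the open autosomal genes of the 98. All open protein-coding genes of the X chromosome had a median percentile of 21.5, against 51.8 on autosomes. Of all 948 protein-coding genes of the X chromosome 44.9% were open.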
